A study of Mus musculus with 8 samples.

Results

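The genes of glycolysis, lactate exchange, glycogen and the pentose phosphate pathway were followed in mouse brain before and during trehalose intake. They were chosen by gene symbol from a list of 36 genes, of which 33 had a probe on the array, with 34 probes in all because Pfkfb2 had 2. The platform annotation gave 1 gene symbol for 20690 of the 23473 probes. Eno1, Gpi1 and G6pdx had no listed probe. All 34 probes lay above background on all 8 arrays, where the limit was set 2 SD over the mean of blank spots, so none was lost to the filter on dim probes.

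The study concerns brain metabolism under intake of trehalose, a sugar made of a pair of glucose units. RNA came from the brain of male C57Bl/6J mice, 9 weeks old before 1 week of acclimatization, that were fasted for 6 h and perfused with heparin before dissection. Control mice drank water and were taken at day 0 (n = 2), and the others were given trehalose for 1 day (n = 3) or for 10 days (n = 3). Each mouse had 1 one-colour array. No water mice are in these groups at day 1 or day 10, so trehalose and the day of sampling cannot be told apart. The treatment text names the cerebral cortex and neocortex, whereas the design text names the frozen left hemisphere.

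Glucose that enters a brain cell is trapped by hexokinase and is then split by glycolysis into pyruvate. Pyruvate is oxidised in mitochondria or reduced to lactate, which astrocytes and neurons can pass to each other through monocarboxylate transporters. Glycogen, stored in the brain mainly by astrocytes, is a reserve of glucose, and the pentose phosphate pathway diverts glucose 6-phosphate to make NADPH and ribose 5-phosphate. Trehalose itself yields glucose once trehalase has split it.

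Many glycolytic promoters are known to be bound by hypoxia-inducible factors, whose core motif can read ACGTG. In RefSeq promoters of build GRCm38.p6, the 250 bases before the start were searched for this motif on both strands, and matches that overlapped were joined. At least 1 match was found for 16 of the 35 members listed in that table (45.7%), against 4998 of 27025 genes (18.5%). Over promoter windows, of which a gene can have several that overlap and share a match, the shares were 20 of 51 (39.2%) and 5444 of 32851 (16.6%). Both subunits of lactate dehydrogenase are shown because they differ in this feature, and Pgk1 as a member of lower glycolysis with matches. Capitals mark the matches, 3 in this window of Ldha, 2 in that of Pgk1 and 0 in that of Ldhb.
Ldha, chr7:46845554-46845803, plus strand: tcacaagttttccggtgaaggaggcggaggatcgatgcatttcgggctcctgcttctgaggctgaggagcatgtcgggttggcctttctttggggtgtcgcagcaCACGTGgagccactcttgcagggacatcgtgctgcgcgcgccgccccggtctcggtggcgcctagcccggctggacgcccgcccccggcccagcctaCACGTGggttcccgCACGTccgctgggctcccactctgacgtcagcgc
Pgk1, chrX:106186850-106187099, plus strand: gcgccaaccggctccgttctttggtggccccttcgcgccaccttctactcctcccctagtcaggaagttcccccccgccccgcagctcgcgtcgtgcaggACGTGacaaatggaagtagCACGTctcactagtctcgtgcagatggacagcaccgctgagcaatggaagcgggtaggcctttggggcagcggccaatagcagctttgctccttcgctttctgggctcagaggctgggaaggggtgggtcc
Ldhb, chr6:142507958-142508207, minus strand: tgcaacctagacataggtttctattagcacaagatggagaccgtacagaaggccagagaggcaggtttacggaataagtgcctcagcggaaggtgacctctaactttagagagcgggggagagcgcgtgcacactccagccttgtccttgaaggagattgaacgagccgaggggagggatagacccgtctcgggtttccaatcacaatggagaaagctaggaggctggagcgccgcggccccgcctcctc
A match is a run of letters and not a measured binding site. The second Ldha window of the table held 0 matches and is not shown. Of members whose values follow, Hk1, Pgd and Pgls held 0 matches in their windows. Pgam1 held 1, and Pfkm, Pfkfb2 and Slc16a3 held 2 each.

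No member passed the test after 1 or 10 days of trehalose. The log2 changes against control lay between -0.12 (Hk1) and 0.26 (Pgls) at 1 day, and between -0.11 (Slc16a3) and 0.15 (Pgd) at 10 days. After 1 day the median log2 change over the 34 probes was -0.0096, with 14 higher and 20 lower, and after 10 days it was -0.028, with 13 higher and 21 lower. Over all 21583 probes tested the medians were -0.00065 and -0.0011, and 49.4% and 49.1% of probes were higher. In limma, with Benjamini-Hochberg adjustment over all of these probes, 0 members passed an adjusted p of 0.05 at either time, as was so for 0% of all probes. The lowest adjusted p of a member was 0.9999 at 1 day and 0.9995 at 10 days. At an unadjusted p under 0.05 there was 1 member at each time (2.94%), against 3.65% and 2% of all probes. At 1 day it was lower (1.63% of all probes) and 0 members were higher (2.02%), and at 10 days it was higher (1.24%) and 0 were lower (0.764%).

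By step, the 8 probes of upper glycolysis had 3 higher and 5 lower at both times, with medians of -0.0037 at 1 day and -0.021 at 10 days. The 6 of lower glycolysis had 2 higher at 1 day (median -0.027) and 4 higher at 10 days (median 0.024). Of the 5 lactate probes 2 were higher at 1 day (median -0.0079) and 0 at 10 days. The 7 glycogen probes had 3 higher at 1 day (median -0.030) and 1 higher at 10 days (median -0.031). The 6 pentose phosphate probes had 3 higher at 1 day (median 0.022) and 4 higher at 10 days (median 0.032).

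The intervals give the precision under the processing used here. For all 34 probes the 95% interval of the log2 change stayed within 0.58 of 0, which is 1.5-fold, at 1 day and at 10 days. It stayed within 1.25-fold for 30 probes at 1 day and for 31 at 10 days. Of all 21583 probes tested, the interval stayed within 1.5-fold for 21287 at 1 day and 21333 at 10 days. It stayed within 1.25-fold for 18982 and 19376 of them. Among the members Pgam1, Pfkm, Pgls and Ldha had the widest intervals. These limits depended on leaving the scanner's local background column out. With that column in the normexp correction, 7 members at 1 day and 8 at 10 days had a log2 change beyond 0.58, from -1.31 (Pygb, 1 day) to 3.54 (Pgam1, 1 day), and the median residual SD of the members was 0.412, against 0.088. In that setting 0 members passed the adjusted threshold. For the members that column had a median of 0.48 to 0.65 of the spot's own signal, depending on the array. Under the other 21 settings the members' changes lay between -0.36 and 0.37 at 1 day and between -0.22 and 0.21 at 10 days. For dim probes the offset added to the intensities compresses changes. The dimmest members were Pgm2, at 1.49 to 1.90 times the blank mean, and the Pfkfb2 probe M300017311, at 1.53 to 1.96 times, so their narrow intervals do not exclude a larger change. Signal here is a bulk average, in which fewer cells of a type and less RNA per cell cannot be told apart.

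**Figure D1:**
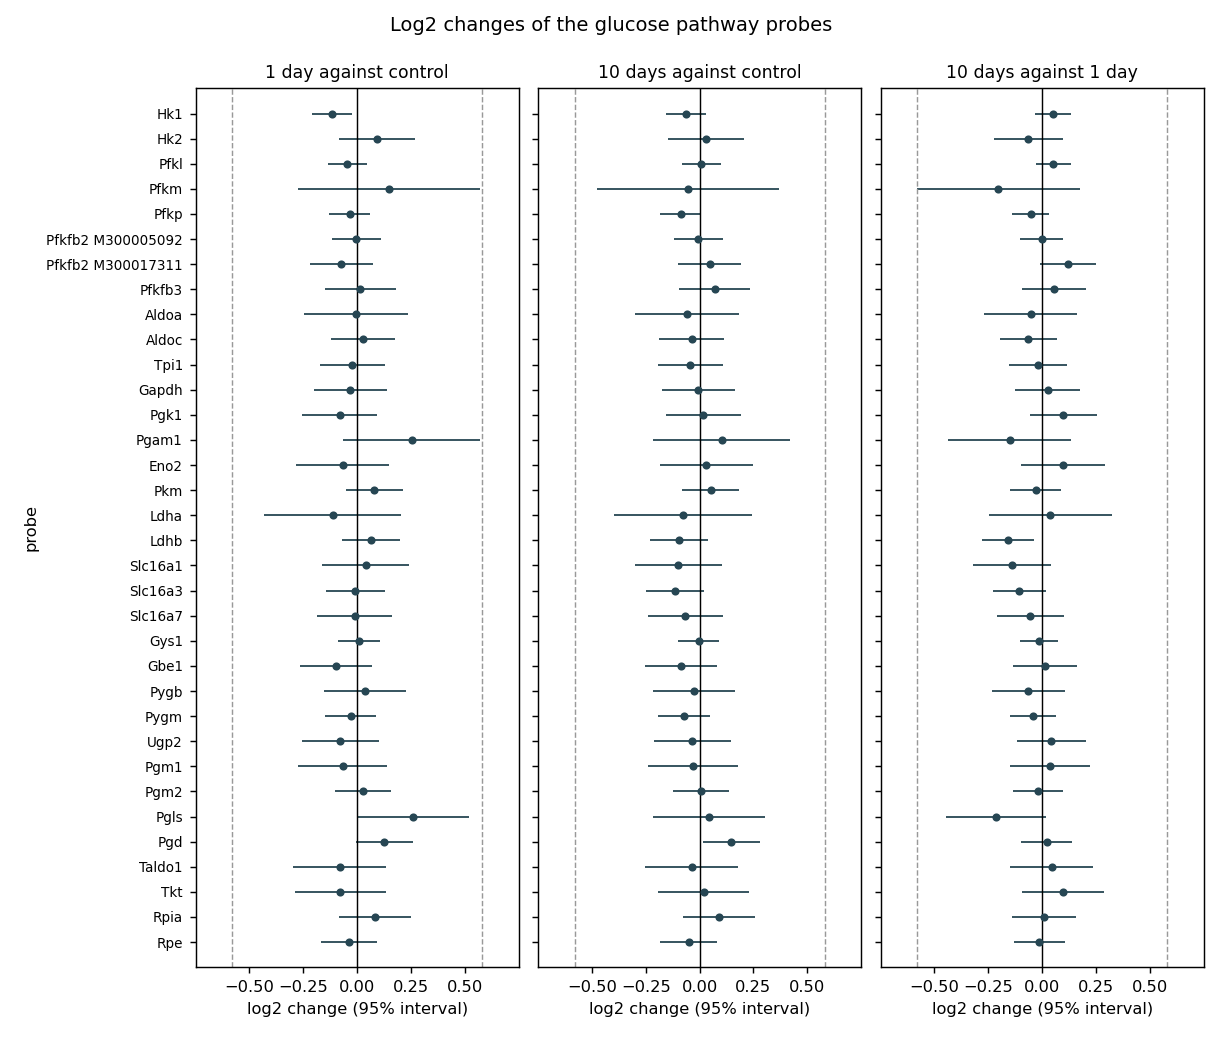
Log2 change (horizontal axis) of each of the 34 probes (vertical axis) in the comparisons of 1 day against control, 10 days against control and 10 days against 1 day. Points are limma estimates, bars are 95% intervals and dashed lines mark 0.58 to each side. In the first 2 panels every bar lies inside the dashed lines, and in the last panel that of Pfkm reaches -0.58.

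**Figure D2:**
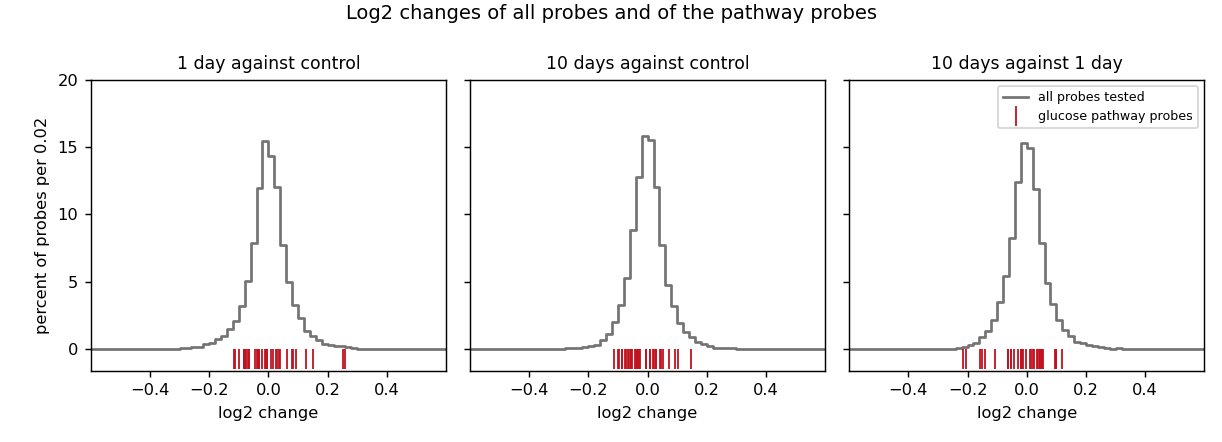
Distribution of log2 changes (horizontal axis) over the 21583 probes tested, as the percent of probes per bin of 0.02 (grey line), with the 34 members as red ticks, for the same comparisons. The ticks lie around 0, between -0.12 and 0.26 at 1 day and between -0.11 and 0.15 at 10 days.

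The arrays themselves were much alike, with correlations of log2 intensity between 0.994 and 0.998 over all tested probes. Lines that join the scanner's first and last gain in the file headers fell into 2 classes, a split chosen after seeing the data, with slopes of 0.244 to 0.245 on control replicate 1 and trehalose 10 days replicates 1 and 3, and of 0.235 to 0.237 on the other 5. Arrays of the first class had 90.7% to 92.0% of probes above background and those of the second 86.3% to 89.2%. The first class holds no array at 1 day of trehalose. Among single members, values with this class as a block are given for Hk1, Pfkm, Pgam1, Ldhb and Pgd, and values within a class for Ldhb and Pgd. Markers of cortical neurons were above background on all arrays for 11 of 11 probes, and so were those of striatum (11 of 11), choroid plexus (8 of 8) and thalamus (12 of 13).

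Entry of glucose was measured through both hexokinases. Hk1 encodes the main brain hexokinase, which binds to the outer membrane of mitochondria. Its log2 intensity was 8.24 and 8.19 on the control arrays, 8.10, 8.13 and 8.08 after 1 day and 8.16, 8.11 and 8.18 after 10 days. All 6 trehalose arrays lay below both controls, and the highest of them, 8.18, was close to the lower control. The log2 change was -0.12 at 1 day (SE 0.04, unadjusted p = 0.0203 in limma) and -0.06 at 10 days (SE 0.04, unadjusted p = 0.147 in limma). For trehalose at either time it was -0.09 (SE 0.04, unadjusted p = 0.0363 in limma), and none passed after adjustment.

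Leaving out control replicate 1 made the difference in Hk1 smaller. Without that array the change at 1 day was -0.088 (unadjusted p = 0.128 in limma), and for either time it was -0.063 (unadjusted p = 0.231 in limma). With the gain class as a block it was -0.087 at 1 day and -0.080 for either time. The local background column gave a larger difference, -0.42 at 1 day and -0.34 for either time. For either time against control, groups did not overlap for 4.72% of all probes, and 1.96% were lower without overlap. Hk2, the hexokinase that is induced in many proliferating cells, had a log2 change of 0.09 at 1 day (SE 0.08) and of 0.03 at 10 days (SE 0.08), and its groups overlapped.

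Phosphofructokinase commits glucose to glycolysis and is built from 3 kinds of subunit. Pfkm, the muscle-type subunit, measured 10.71 and 11.03 on the control arrays, 10.94, 10.91 and 11.20 after 1 day and 10.45, 11.01 and 10.98 after 10 days. Its residual SD of 0.244 was the largest among the members (median 0.088), and the lowest array was trehalose 10 days replicate 1. Its changes were 0.15 at 1 day (95% interval -0.27 to 0.57) and -0.06 at 10 days (-0.48 to 0.37). Both signs depended on single arrays. At 10 days the change of Pfkm was 0.13 without trehalose 10 days replicate 1 and 0.11 without control replicate 2, and at 1 day it was -0.013 without control replicate 1 and -0.0037 with the gain class as a block.

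Pfkp, the platelet-type subunit, had log2 intensities of 10.57 and 10.62 in control, 10.57, 10.54 and 10.57 after 1 day and 10.51, 10.56 and 10.46 after 10 days. The 10-day arrays all lay below both controls, by a log2 change of -0.09 (SE 0.04, unadjusted p = 0.0664 in limma). That sign turned with the local background column, where the change was 0.29. Pfkl, the liver-type subunit, had a change of -0.05 at 1 day (95% interval -0.14 to 0.05) and of 0.01 at 10 days (-0.08 to 0.10).

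Fructose 2,6-bisphosphate, the main activator of phosphofructokinase, is made and broken down by enzymes of the Pfkfb family. Pfkfb3, the isoform with a high kinase activity, had a change of 0.01 at 1 day (SE 0.07) and of 0.07 at 10 days (SE 0.07). The Pfkfb2 probe M300017311 read 6.17 and 6.30 in control, 6.12, 6.17 and 6.21 after 1 day and 6.19, 6.37 and 6.29 after 10 days. Its 10-day and 1-day arrays overlapped, with a change of 0.12 between the times (SE 0.06, unadjusted p = 0.0668 in limma). It was -0.0069 with the local background column and 0.56 in the authors' processed intensities. The other Pfkfb2 probe, M300005092, had a change of -0.00 in that comparison (95% interval -0.10 to 0.10). The intervals of these probes overlapped.

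Aldolase splits fructose 1,6-bisphosphate, and in brain its C form is typical of astrocytes. The log2 change of Aldoa was -0.00 at 1 day and -0.06 at 10 days, and that of Aldoc 0.03 and -0.04. All of these intervals included 0. Aldoa had its lowest and highest arrays both after 1 day, at 13.16 and 13.55.

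In lower glycolysis, Gapdh, which oxidises glyceraldehyde 3-phosphate and is often used as a reference gene, measured 13.01 and 13.00 in control, 12.99, 13.00 and 12.93 after 1 day and 12.91, 12.93 and 13.16 after 10 days. One array, trehalose 10 days replicate 3, was higher than the rest. The changes were -0.03 at 1 day (95% interval -0.20 to 0.14) and -0.01 at 10 days (-0.18 to 0.16). Gapdh has many processed pseudogenes in the mouse genome, so its probe may read more than 1 transcript.

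Pkm, the pyruvate kinase of brain, read 10.73 and 10.87 in control, 10.87, 10.96 and 10.83 after 1 day and 10.81, 10.87 and 10.88 after 10 days. The groups overlapped, with changes of 0.08 (SE 0.06) and 0.05 (SE 0.06). Tpi1, a triose isomerase, was at -0.02 and -0.04, and Pgk1, which yields the first ATP of the pathway, was at -0.08 after 1 day and 0.02 after 10 days. Eno2, the neuronal enolase, was at -0.07 and 0.03. Eno1b, a near copy of Eno1 that is no member and was looked up once Eno1 was found to lack a probe, had a change of 0.01 at both times. Eno1b read 5.89 to 5.96, below all members. The offset compresses changes at that level, so a larger change is not excluded.

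Pgam1, the phosphoglycerate mutase, had the second largest point estimate at 1 day and was singled out after its values were seen. It measured 13.10 and 13.18 in control, 13.16, 13.49 and 13.55 after 1 day and 13.12, 13.47 and 13.15 after 10 days. The 3 high arrays were trehalose 1 day replicates 2 and 3 and trehalose 10 days replicate 2, and the other 5 lay between 13.10 and 13.18. The change at 1 day was 0.25 (95% interval -0.06 to 0.57), which includes 0. With the local background column it was 3.54 at 1 day and 3.38 at 10 days (unadjusted p = 0.0728 and 0.0837 in limma), and with the gain class as a block it was 0.14 at 1 day. At 10 days the change was 0.10, and without trehalose 10 days replicate 2 it was -0.0084.

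**Figure D3:**
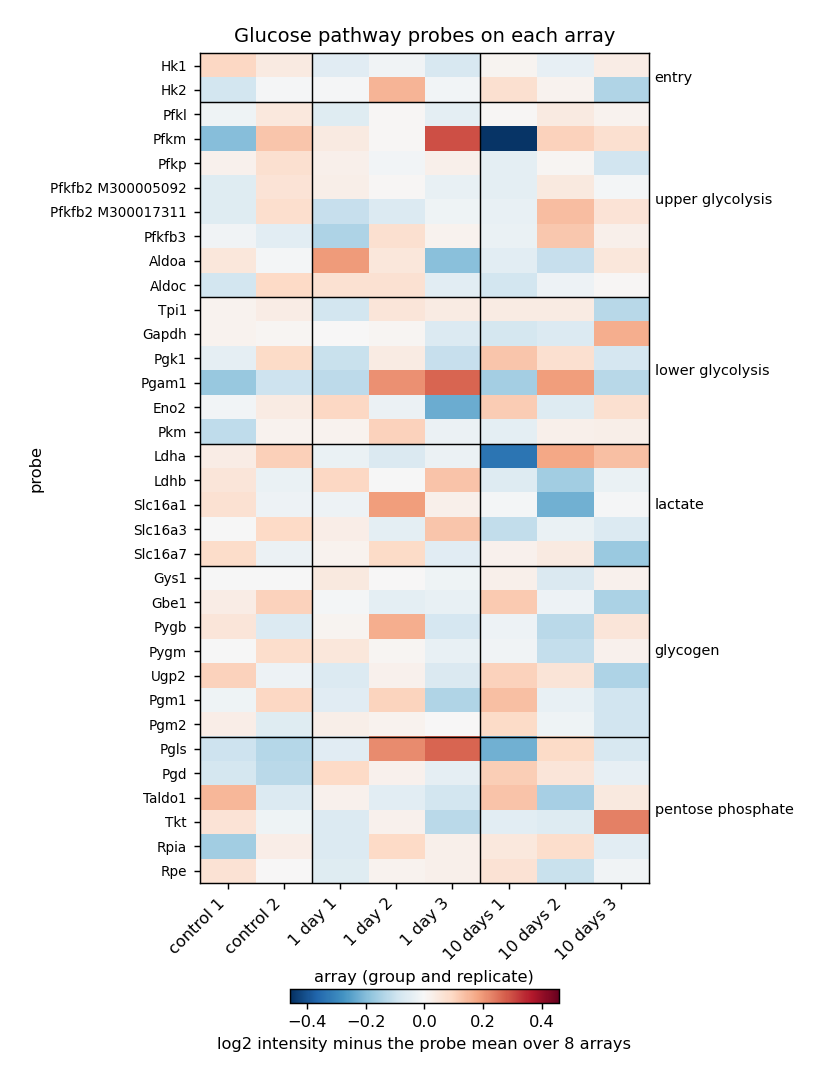
Log2 intensity of each probe (rows, grouped by pathway step) on each array (columns, by group and replicate), shown as the difference from the probe's own mean over the 8 arrays. Red is higher and blue lower. The darkest cells are single arrays, such as Pfkm and Ldha on trehalose 10 days replicate 1, and Pgam1 and Pgls are reddest on the same 3 arrays.

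Lactate dehydrogenase is a tetramer of A and B subunits, the A form favouring the making of lactate and the B form its use. Ldhb measured 12.74 and 12.66 in control, 12.78, 12.69 and 12.82 after 1 day and 12.63, 12.53 and 12.66 after 10 days. Every 10-day array lay below every 1-day array, while control overlapped with the 1-day arrays. Of the 10-day arrays 2 were below both controls, and replicate 3 was level with control replicate 2 to the printed digits. Groups that do not overlap in that direction made up 4.27% of all probes between the times.

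Between the times the log2 change of Ldhb was -0.16 (SE 0.05, unadjusted p = 0.0165 in limma), and its adjusted p was 0.9998. It was the 1 member at an unadjusted p under 0.05 between the times (2.94%), against 3.49% of all probes. By direction, 1 member was lower (1.63% of all probes) and 0 were higher (1.86%). It was also the 1 member at that level in the F test over the 3 groups (unadjusted p = 0.0457 in limma), where the share of all probes was 2.79%. Against control its change was 0.06 at 1 day (SE 0.06) and -0.10 at 10 days (SE 0.06). With the gain class as a block the change between the times was -0.23, and within the class of 5 arrays, which held 1 array at 10 days, it was -0.24. It was -0.048 with the local background column.

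Ldha read 11.38 and 11.46 in control, 11.32, 11.28 and 11.32 after 1 day and 11.02, 11.53 and 11.49 after 10 days. All 1-day arrays lay below both controls, and trehalose 10 days replicate 1 was the lowest of all. The changes were -0.11 at 1 day (95% interval -0.43 to 0.21) and -0.08 at 10 days (-0.40 to 0.24). The 10-day sign rested on that 1 array: without it the change of Ldha was 0.088, and with the local background column it was 0.43.

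Of the monocarboxylate transporters, Slc16a1 (MCT1) is prominent in brain endothelium and oligodendrocytes. It measured 8.48 and 8.38 in control, 8.38, 8.60 and 8.43 after 1 day and 8.40, 8.19 and 8.40 after 10 days. The groups overlapped, and the changes were 0.04 (SE 0.09) and -0.10 (SE 0.09). Slc16a3 (MCT4), a transporter of lactate out of glycolytic cells such as astrocytes, read 7.48 and 7.57 in control, 7.51, 7.43 and 7.61 after 1 day and 7.37, 7.45 and 7.42 after 10 days. Its 10-day arrays all lay below both controls, with a change of -0.11 (SE 0.06, unadjusted p = 0.0901 in limma). Slc16a7 (MCT2), the neuronal form with high affinity, was at -0.01 after 1 day and -0.07 after 10 days.

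All 5 lactate probes were below control at 10 days, with a median log2 change of -0.096, and none passed the test. That tally did not hold in every setting. Ldha was at 0.088 without trehalose 10 days replicate 1, Slc16a7 at 0.0011 without trehalose 10 days replicate 3, and Ldha at 0.43 and Ldhb at 0.52 with the local background column. Of the lactate probes 2, Ldhb and Slc16a3, had groups that did not overlap, for Ldhb by less than the printed digits. Over all members 5 of 34 probes had groups that did not overlap at 10 days (14.7%), against 13.4% of all probes. Of these 1 was higher (6.63% of all probes) and 4 were lower (6.78%). At 1 day it was again 5 (14.7%), against 18.2% of all probes, with 2 higher (8.86%) and 3 lower (9.3%).

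Glycogen is built by Gys1, the synthase of brain and muscle. Gys1 measured 7.64 and 7.64 in control, 7.69, 7.65 and 7.62 after 1 day and 7.67, 7.58 and 7.66 after 10 days. The changes were 0.01 (95% interval -0.09 to 0.11) and -0.01 (-0.10 to 0.09). Gbe1, the branching enzyme, was lower than both controls on all 3 arrays at 1 day, by a change of -0.10 (SE 0.07, unadjusted p = 0.211 in limma), and overlapped control at 10 days.

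Breakdown of glycogen rests on phosphorylase. Pygb, the brain form, read 9.89 and 9.77 in control, 9.84, 10.00 and 9.75 after 1 day and 9.81, 9.71 and 9.89 after 10 days, so that the groups overlapped. Its changes were 0.04 (SE 0.08) and -0.03 (SE 0.08). Pygm, the muscle form, which astrocytes also make, was at -0.03 and -0.07. Ugp2, which makes the UDP-glucose that synthase uses, was at -0.08 and -0.03, and the phosphoglucomutase genes Pgm1 and Pgm2 were at -0.07 and 0.03 after 1 day and at -0.03 and 0.01 after 10 days. At 10 days 6 of the 7 glycogen probes were below control, where 50.9% of all probes were lower, and all of their intervals included 0. That tally did not hold in every setting. Among the 22 alternative settings the sign turned in 4 each for Gys1, Ugp2 and Pgm1. It turned in 2 for Pygb, 1 for Gbe1 and 0 for Pygm.

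The oxidative arm of the pentose phosphate pathway held the member that, besides Hk1, had an unadjusted p under 0.05 against control in limma. Pgd, which yields the second NADPH of that arm, measured 7.78 and 7.74 in control, 7.95, 7.88 and 7.82 after 1 day and 7.98, 7.92 and 7.83 after 10 days. All 6 trehalose arrays lay above both controls, as was so for 2.77% of all probes. The change was 0.13 at 1 day (SE 0.06, unadjusted p = 0.0605 in limma) and 0.15 at 10 days (SE 0.06, unadjusted p = 0.0345 in limma).

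For trehalose at either time against control, the change of Pgd was 0.14 (SE 0.05, unadjusted p = 0.0297 in limma), and its adjusted p was 0.9999. Pgd and Hk1 were the 2 members at an unadjusted p under 0.05 in that comparison (5.88%), against 2.65% of all probes. Higher values at that level made up 1.68% of all probes and lower ones 0.964%. In that comparison 11 member probes were higher and 23 lower, where 48.6% of all probes were higher. Comparisons with control share the same 2 control arrays. With the gain class as a block the changes of Pgd were 0.15 at 10 days and 0.14 for either time. At 10 days the change was 0.18 within the class of 5 arrays and 0.12 within the class of 3. In the class of 5 only trehalose 10 days replicate 2 and control replicate 2 were compared. The only control in the class of 3 was control replicate 1, so neither value has replicated controls. The changes of Pgd against control kept their sign under all 22 alternative settings, some of which cannot alter them. At 10 days their range was 0.11 to 1.04. The upper end came from the local background column.

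**Figure D4:**
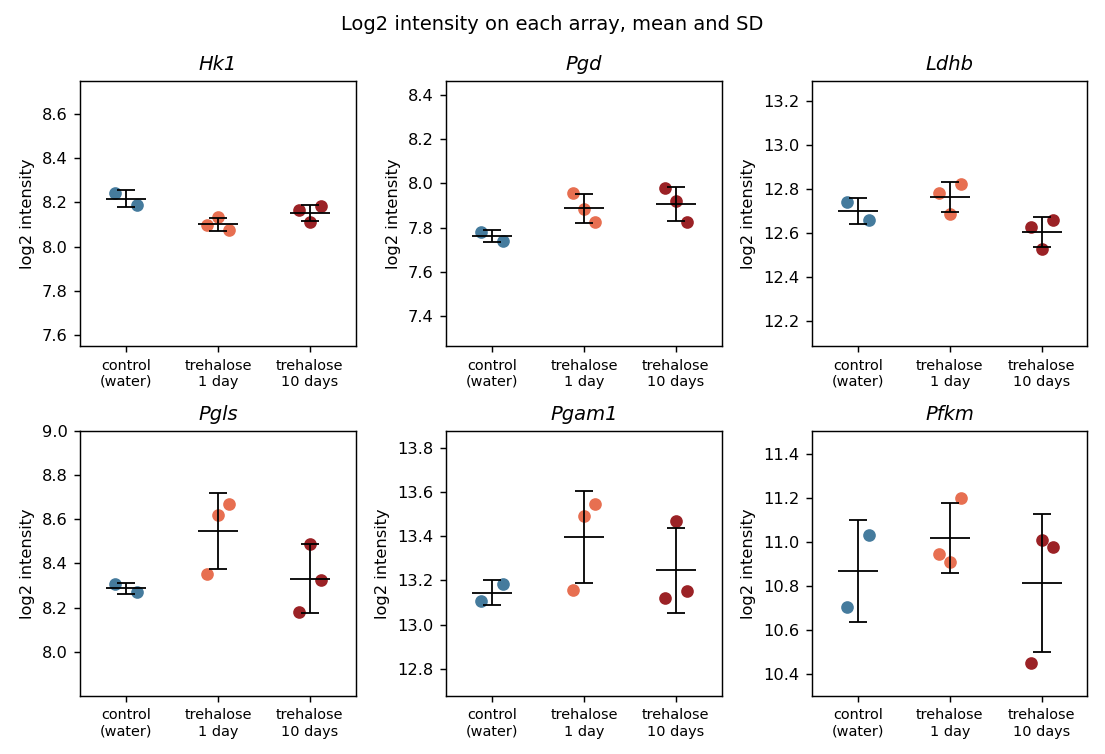
Log2 intensity (vertical axis, 1.2 units high in each panel) on each array for 6 genes, by group in order of day. Points are arrays, the long bar is the group mean and the error bar its SD (n = 2, 3 and 3). Hk1 lies below control and Pgd above it on all 6 trehalose arrays, Ldhb separates the 2 times, and Pgls, Pgam1 and Pfkm vary within groups.

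Pgls, the lactonase between the 2 dehydrogenases of that arm, had the largest point estimate at 1 day. It measured 8.31 and 8.27 in control, 8.35, 8.62 and 8.67 after 1 day and 8.18, 8.49 and 8.33 after 10 days. The 3 highest arrays were those on which Pgam1 was highest as well. The change was 0.26 at 1 day (SE 0.11, unadjusted p = 0.0514 in limma), 0.04 at 10 days (SE 0.11) and -0.21 between the times (SE 0.10, unadjusted p = 0.0661 in limma). With the local background column the change of Pgls was 0.80 at 10 days, and its sign between the times turned, to 0.43. The 10-day change was -0.035 without trehalose 10 days replicate 2. The 1-day arrays lay above both controls, as for 8.86% of all probes. With the gain class as a block the members' changes at 1 day lay between -0.21 and 0.20.

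The non-oxidative arm returns pentoses to glycolysis. Its members Taldo1 (transaldolase), Tkt (transketolase), Rpia and Rpe, which interconvert pentose phosphates, had log2 changes between -0.08 and 0.08 at 1 day and between -0.05 and 0.09 at 10 days. Tkt was highest on trehalose 10 days replicate 3, at 10.37, and lay between 10.01 and 10.20 on the other 7 arrays. G6pd2, an autosomal near copy of G6pdx that is no member, was looked up for the same reason. Its log2 change was 0.05 after 1 day and 0.09 after 10 days, neither past the test. Its trehalose arrays lay above both controls, as for 2.77% of all probes. The lowest of them, trehalose 1 day replicate 2 at 6.800, was close to control replicate 2 at 6.797.

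Between 10 days and 1 day 15 member probes were higher and 19 lower, with a median of -0.014, against -0.00057 over all probes, of which 49.5% were higher. None passed (0% of all probes did), and the intervals of 33 of 34 stayed within 0.58, as did those of 21369 of all 21583 probes. Between the times 2 members had groups that did not overlap (5.88%), against 8.57% of all probes. They were Ldhb, lower at 10 days (4.27%), and Pfkl, higher at 10 days by 0.05 (SE 0.03, 4.3%).

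Isoenzymes of the same step were compared as a log2 ratio within each array, for 8 pairs. Such a ratio can show an unequal change of a pair but not their relative level. Hk2 over Hk1 differed most for trehalose at either time against control, by 0.15 (exact permutation p = 0.143, two-sided, n = 6 and 2, adjusted p = 0.939 over the pairs). Its mean was -1.53 ± 0.11 in trehalose mice and -1.68 ± 0.09 in control (SD). Ldhb over Ldha had a difference of 0.079 (exact permutation p = 0.679) and Aldoc over Aldoa one of 0.025 (exact permutation p = 0.821). The smallest p that these 28 arrangements allow is 0.0357, and 0 pairs reached it. The other 5 pairs differed by -0.11 to 0.052, with exact permutation p-values of 0.464 to 1.

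Other genes of these pathways were read from a list of 63, of which 51 had a tested probe, 53 probes in all. None passed the test at any time. At 1 day 32 were higher and 21 lower, with a median of 0.014, and at 10 days 24 were higher and 29 lower, with a median of -0.0051. At an unadjusted p under 0.05 in limma, 2 were higher and 1 lower at 1 day (5.66%, against 3.65% of all probes), and there were 0 at 10 days (against 2%). The shares of these probes that were higher were 60.4% at 1 day and 45.3% at 10 days, against 49.4% and 49.1% of all probes. Gaa, the lysosomal enzyme that degrades glycogen, had the lowest p at 1 day, with 10.82 ± 0.09 after 1 day (SD, n = 3) against 10.55 ± 0.06 in control (SD, n = 2). Its change was 0.27 (SE 0.06, unadjusted p = 0.00203 in limma, adjusted p = 0.9999) and at 10 days it was 0.12 (SE 0.06). Gsk3b, a kinase that inhibits glycogen synthase, had a change of -0.22 at 1 day (SE 0.08), and Pygl, the liver phosphorylase, one of 0.12 (SE 0.04). Between the times these changes were -0.15 for Gaa, 0.17 for Gsk3b and -0.12 for Pygl. At 10 days the lowest p-values after Gaa were those of Dera, a deoxyribose phosphate aldolase, at 0.09 (SE 0.04), and Ppp1r3d, a glycogen-targeting phosphatase subunit, at 0.10 (SE 0.05) for its probe M400013375 and -0.01 for its other probe.

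Lists of cell and region markers varied beside these values. Thalamus markers were higher than control for 10 of 12 probes at 1 day and 11 of 12 at 10 days, with a summed log2 level of 11.63 and 11.85 in control, 11.81 to 12.29 after 1 day and 11.90 to 12.03 after 10 days. Striatum markers were higher than control for 1 of 11 probes at 1 day and 5 of 11 at 10 days, and were lowest on trehalose 1 day replicate 2, with a summed level of 12.08, against 12.85 to 13.50 on the other 7 arrays. Without that array the change of Ldhb between the times was -0.20 and that of Hk1 at 1 day -0.13. Astrocyte markers summed to 13.83 and 13.97 in control, 13.79 to 13.84 after 1 day and 13.77 to 13.91 after 10 days, and oligodendrocyte markers to 14.70 and 14.62 in control, 14.51 to 14.77 after 1 day and 14.66 to 14.72 after 10 days. Cortical neuron markers were higher than control for 2 of 11 probes at each time, with sums of 12.42 and 12.45 in control, 12.32 to 12.40 after 1 day and 12.27 to 12.31 after 10 days. At 1 day 1 of 9 interneuron, 2 of 10 endothelium, 3 of 9 microglia and 5 of 6 hypothalamus probes were higher than control, and at 10 days 2, 5, 2 and 4. Blood markers, above background for 4 of 5 probes, summed to 10.69 and 9.50 in control, 10.47 to 11.46 after 1 day and 9.41 to 11.61 after 10 days. Choroid plexus markers were higher than control for 7 of 8 probes at 1 day and 8 of 8 at 10 days, with sums of 14.67 and 14.90 in control, 14.61 to 15.05 after 1 day and 14.90 on each array after 10 days. These sums lay close to Ttr alone, which read 14.85 on each array after 10 days and on control replicate 2. Kl, a dimmer marker of that list, read 7.17, 7.02 and 7.14 after 10 days. Tcf7l2, a thalamus marker, and Slc4a1, a red cell marker, were above background on 0 arrays. The part of these markers in the members' values was not tested.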

How the data were processed

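RNA of 8 mouse brains was measured on one-colour arrays, labelled with Cy5 through amino allyl RNA per the labels' protocols. Each deposited array file lists, per the file headers, spot median intensities joined from 3 scanner gains by fitted lines, local background intensities and flags at each gain. The authors also deposited processed intensities, linear with a median of 25.0 on each array, whose centring and background steps are unknown. These served as an alternative.

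Spot medians were corrected by normexp (offset 50, fitted on all spots) and quantile normalized in limma 3.58.1 (R 4.3.3). The 10 failed probe spots were set to missing. The filter kept 21583 of 23473 probes, those over the blank limit (mean plus 2 SD) on 2 or more arrays. All 8 arrays entered 1 limma fit with 3 groups and 5 residual degrees of freedom, with eBayes, contrasts and Benjamini-Hochberg adjustment over all tested probes at 0.05. Isoenzyme ratios had an exact permutation test over arrays. The script was tested on simulated data. Log2 values include the offset. Symbols were updated by gene identifier.

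The members, lists and tests were chosen with earlier results of these data known. Values on every array are given for the entry, committed, lactate, glycogen and pentose steps (Hk1, Pfkm, Gapdh, Pkm, Ldha, Ldhb, Slc16a1, Gys1, Pygb) and for the 3 members with the lowest p in each comparison. Of other pathway genes the 3 with the lowest p were eligible. The number of arrays limits the precision, with a median half-width of the 95% interval of 0.17 for members against control. Alternatives covered the background, offset, scaling, filter, variance model, array weights, covariates, 1 probe per gene, the authors' table and leaving out each array.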

Additional observations from a re-analysis of the deposited data

How the results depend on the processing

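No member passed the threshold in any comparison under the 22 alternative settings. Over all probes 1 probe was called at 10 days against control, at 10 days against 1 day and in the F test after subtraction of the blank mean, and 1 in each of these with trend and robust variances. Leaving out 1 array gave 0 to 2 calls at 1 day against control, 0 to 2 at 10 days, 0 to 2 for either time and 0 to 2 in the F test, the 2 arising without control replicate 1. The median change of the members at 1 day was 0.0077 with the local background column and -0.050 in the authors' table, and lay between -0.030 and 0.0055 when 1 array was left out. At 10 days it was -0.045 with the local background column and between -0.028 and -0.010 with 1 array left out. Between the times it was 0.0059 with the local background column, 0.040 in the authors' table and between -0.030 and 0.0044 with 1 array left out. With only arrays of 1 gain class, chosen after seeing the data, it was -0.037 for either time in the class of 5 and 0.0077 at 10 days in the class of 3. Each class holds only 1 control array. The causes were not tested.

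The sign of a member's change turned in 228 of 2988 pairs of a change and a setting. Of these turns 39 came with the local background column, and none fell on a change with an unadjusted p under 0.05 in limma. Some pairs could not turn, so the count is no measure of stability. Settings of the filter, the variance model or 1 probe per gene leave a log2 change as it was. So does leaving out an array of a group outside the comparison. Of the 7 same-numbered pairs of arrays 6 deviated together (r of 0.119 to 0.261 over probes) and 1 did not (-0.026). Of 14 pairs with different numbers 2 were above 0.1 and 10 were below 0. By this count same-numbered arrays deviated together more often. Deviations from a group mean sum to 0, and those of the 2 controls are opposite by construction, so these pairs are not independent. Each same-numbered pair with a control has a pair of different numbers with the opposite r. Between trehalose arrays the same-numbered pairs had r of 0.222, -0.026 and 0.119, and pairs with different numbers -0.314 to 0.213. The main fit left the numbers out, and whether they mark a shared effect was not tested. With the replicate block 0 probes were called and the members' median at 1 day was 0.0012. The median residual SD of the members was then 0.074, against 0.088 in the main fit. The isoenzyme pair of Eno2 and Eno1 could not be fitted, since Eno1 had no probe. With 2 controls, the median half-width of the members' intervals against control was 0.17 on the log2 scale.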
